A study of Mus musculus with 38 samples.

Results

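The genes described here carry calcium into the cell, release it from stores or pump it away: the channels Trpc1, Trpc6, Trpv4, Orai1 and Cacna1c, the store sensor Stim1, the store release channel Itpr1, and the pumps Atp2a2 and Atp2c2. They were chosen by their role in calcium handling and, for Atp2c2, selected on a measured value, and their features were taken by gene symbol from the array's annotation. Of the 9 genes, 8 had features on the array, with 15 features of 45220 in all: 4 for Atp2a2, 3 for Trpc1, 2 each for Stim1 and Cacna1c, and 1 each for Trpc6, Trpv4, Orai1 and Atp2c2. No feature carried the symbol Itpr1, which was not analysed here. Atp2c2 was selected on its log ratio between day 7 of return to normoxia and hypoxia, so its values on day 7 are given as a description without a test.

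The study followed the reversal of vessel remodelling after hypoxia in C57BL/6J mice of 12 to 18 weeks. One group was kept in normoxia (inspired oxygen fraction 0.21) for 21 days, with 8 animals, and another in hypoxia (0.10) for 21 days, with 23 animals. The remaining animals went through the same hypoxia and were then returned to normoxia for 1 day (11 animals), 3 days (12), 7 days (12) or 14 days (10). These numbers count array channels, each taken as a separate animal, since the sample labels identify no animals. The labels name no altered allele and no drug. Lung vessels with an outer diameter of 50 to 100 µm were cut by laser from cryosections of 10 µm, and RNA of 2 animals was hybridised to each of 38 Agilent arrays, 1 animal in Cy3 and 1 in Cy5.

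Calcium in smooth muscle of the lung vessels sets their tone, and a rise in it also accompanies growth of these cells. Trpc and Trpv channels open on receptor signals or mechanical stimuli, Stim1 senses an emptied store and opens Orai1 (store-operated entry), and Cacna1c forms the voltage-gated L-type channel. Atp2a2 (SERCA2) pumps calcium back into the endoplasmic reticulum, and Atp2c2 (SPCA2) pumps calcium and manganese into the Golgi and is known mainly from secretory epithelium.

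Promoter windows in the RefSeq table (GRCm38.p6) were matched for 6 of the 9 genes, and they are shown for Trpc6, which had the largest difference between hypoxia and normoxia among the genes, and for Orai1, which was lower on every array with a day 3 animal. The 250 bases before the gene start are printed, Orai1 at chr5:123014824-123015073 and Trpc6 at chr9:8543892-8544141, both on the plus strand. Capitals mark ACGTG or GCGTG, the core letters of hypoxia response elements, searched on both strands (a GCGTG on the minus strand reads CACGC here).
Trpc6: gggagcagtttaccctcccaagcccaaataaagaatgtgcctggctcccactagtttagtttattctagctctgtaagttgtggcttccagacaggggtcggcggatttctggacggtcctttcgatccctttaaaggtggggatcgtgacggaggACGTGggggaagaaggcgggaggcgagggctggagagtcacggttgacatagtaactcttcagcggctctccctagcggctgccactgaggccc
Orai1: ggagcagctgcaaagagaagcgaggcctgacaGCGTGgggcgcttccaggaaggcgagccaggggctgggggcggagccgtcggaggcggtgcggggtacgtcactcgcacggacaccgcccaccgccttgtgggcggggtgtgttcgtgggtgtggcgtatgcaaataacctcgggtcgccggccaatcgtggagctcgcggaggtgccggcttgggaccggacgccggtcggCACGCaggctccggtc
The Trpc6 stretch held 1 ACGTG, whose first base lay at -94 from the gene start. The Orai1 stretch held GCGTG at -218 and, on the minus strand, at -16. In the full windows of 300 bases, Trpc1 held 1 ACGTG at 16 after the start, 1 of the 3 Cacna1c windows held an ACGTG at -121, Stim1 held a GCGTG on the minus strand at -65 and Trpv4 held neither. Either core was present in 43.8% of all 32851 windows of this length, ACGTG in 19.6% and GCGTG in 32.4%, so these matches are a description of the letters alone.

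All values below are log ratios between the channels of an array, or differences of such log ratios from a joint fit of the 38 arrays (limma). The base of the log is not stated in the sources used here. Folds are given for base 10 and for base 2, and the direction, Cy5 over Cy3, follows convention and is likely but not settled. Only ratios were used here, so neither the presence of vessel markers nor the level of any gene was checked. The array medians lay between -0.00306 and 0.00678, array SDs between 0.0742 and 0.192, and arrays of the same pair of conditions in the same dye orientation correlated from -0.0274 upward. In tissue cut from sections, fewer cells of a type and less RNA per cell cannot be told apart. Markers of alveolar cells, which lie next to the vessels, moved with hypoxia: the mean of the 13 alveolar type 1 markers differed from normoxia by 0.0964 ± 0.0190 (SE) and that of the 13 type 2 markers by 0.0970 ± 0.0139, each above 0 on 8 of 8 direct arrays (0.0196 to 0.148 and 0.0563 to 0.154). The mean of the 12 smooth muscle markers differed by -0.0669 ± 0.0156, below 0 on 8 of 8 arrays (-0.131 to -0.00478). The part of these shifts in the results below was not settled. Fits with the alveolar mean, the cardiac muscle mean or the airway mean added are given as a description. The alveolar mean itself moved with hypoxia, so adding it also takes out differences between the conditions and cannot separate the 2.

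Chronic hypoxia against normoxia was the comparison with the most calls in the study: 3.6% of the 30653 entries tested (named genes, or single features without a name) passed an adjusted p of 0.05 (limma, Benjamini-Hochberg). Of the 8 calcium genes 0 passed, and 2 of 8, Trpc6 and Trpv4, had an unadjusted p under 0.05, which 16.8% of all entries had. In the joint fit 4 of the 8 genes were above 0 and 4 below it. The gene with the largest log ratio was Trpc6, a receptor-operated channel that admits calcium and sodium and has been linked to the acute constriction of lung vessels in hypoxia in mice.

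On the 8 direct arrays Trpc6 ranged from -0.354 through a median of 0.190 to 0.509, hypoxia minus normoxia. It was above 0 on 7 of the 8, and the array below 0 was N_H 4 (normoxia in Cy3, hypoxia in Cy5). The joint fit gave 0.172 ± 0.0711 (SE; 95% interval 0.0281 to 0.317), that is 1.49-fold in base 10 or 1.13-fold in base 2. It did not pass (limma, adjusted p = 0.190). Each of the 38 arrays was dropped in turn, which gave log ratios from 0.126 to 0.247. For 37 of them Trpc6 still did not pass. The exception was N_H 4, without which it was at 0.247 (limma, adjusted p = 0.0407). This was the only direct array below 0, so dropping it had to raise the log ratio. With the alveolar marker mean in the fit it was 0.0132 (adjusted p = 0.985). Over the 38 arrays, after the dye effect was taken off, Trpc6 had a Pearson correlation of 0.493 with the alveolar type 1 mean and of -0.499 with the smooth muscle mean, the latter -0.325 without the 2 farthest arrays.

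Trpv4, a channel of endothelium and smooth muscle that opens on stretch, heat and lipid messengers, lay on the other side. Its direct arrays ranged from -0.145 through a median of -0.0748 to 0.0531, and 2 of 8 were above 0. The joint fit gave -0.0550 ± 0.0199 (95% interval -0.0954 to -0.0146), which did not pass (limma, adjusted p = 0.121). With each of the 38 arrays dropped in turn it lay between -0.0718 and -0.0426, and for 37 of them it did not pass. The exception was H_N 2 (hypoxia in Cy3), without which it was -0.0718, with an adjusted p just under the threshold. That array held the highest direct value, 0.0531, so dropping it had to lower the log ratio. With the alveolar mean in the fit Trpv4 was at -0.0317 (adjusted p = 0.791). Against normoxia, Trpv4 also had log ratios of -0.0603, -0.0636, -0.0500 and -0.0692 on days 1, 3, 7 and 14, and none of them passed, where 0.111%, 0.783%, 0.0228% and 0.0261% of all entries did. These 4 values share the normoxia animals and, through the fit, the hypoxia animals with the first.

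**Figure D1:**
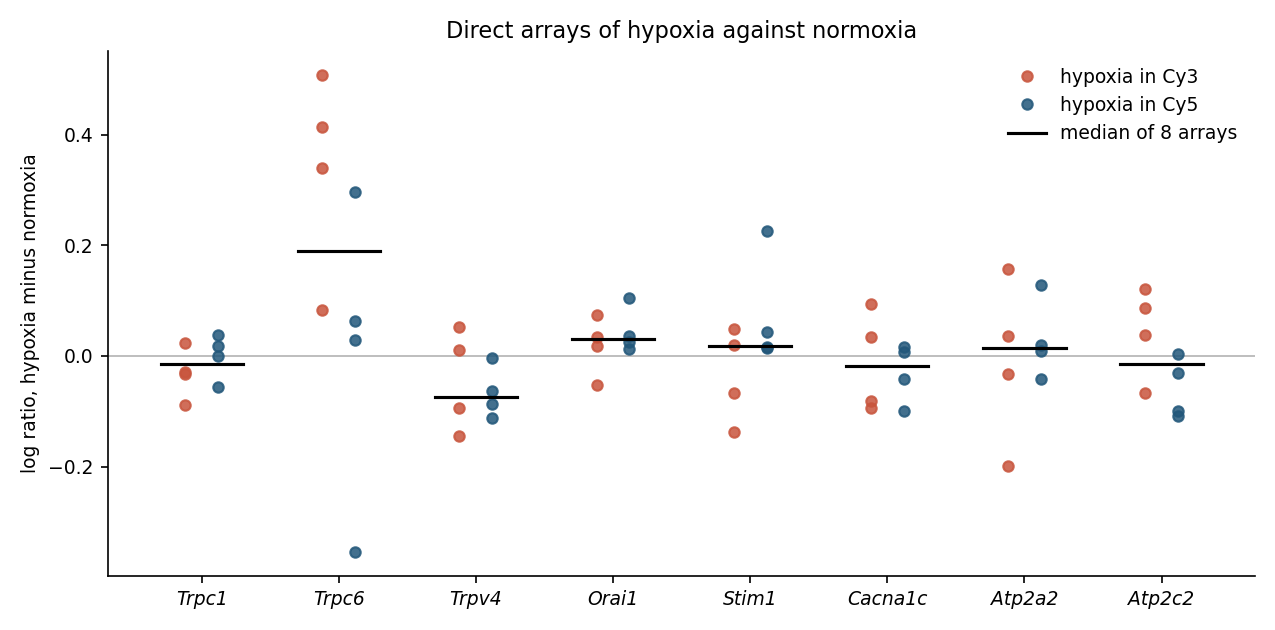
Log ratio of hypoxia minus normoxia on each of the 8 direct arrays (vertical axis), for 8 genes (horizontal axis). Points are arrays, coloured by the dye of the hypoxia animal, and the bar is the median. Trpc6 spreads from -0.354 to 0.509, far wider than Orai1, which spans -0.0529 to 0.104.

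Trpc1, a channel subunit that takes part in store- and receptor-operated entry, ranged from -0.0885 through -0.0149 to 0.0387 on the direct arrays and was above 0 on 3 of 8. Its joint value was -0.0160 ± 0.0243, with a 95% interval of -0.0654 to 0.0334 (limma, adjusted p = 0.821). The interval leaves room for a difference to either side. The 3 features of Trpc1 gave -0.0109, -0.0151 and -0.0220, all on the same side of 0.

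The store-operated pair did not pass either. Orai1, the pore of store-operated entry, ranged from -0.0529 through 0.0302 to 0.104 on the direct arrays and was above 0 on 7 of 8. Its joint value was 0.0315 ± 0.0168 (95% interval -0.00268 to 0.0656; limma, adjusted p = 0.349). Stim1, the store sensor that opens Orai1, ranged from -0.137 through 0.0186 to 0.226 and was above 0 on 6 of 8. Its joint value was 0.0206 ± 0.0263 (95% interval -0.0327 to 0.0739; adjusted p = 0.775).

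Cacna1c, the pore of the L-type channel, was above 0 on 4 of 8 direct arrays, from -0.0998 through -0.0176 to 0.0943. Its joint value was -0.0208 ± 0.0225 (95% interval -0.0665 to 0.0249; limma, adjusted p = 0.720). Its 2 features gave 0.00515 and -0.0467, on opposite sides of 0.

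Both pumps lay near 0 in hypoxia. Atp2a2 ranged from -0.199 through 0.0142 to 0.157 on the direct arrays and was above 0 on 5 of 8, with a joint value of 0.00944 ± 0.0302 (95% interval -0.0518 to 0.0707; limma, adjusted p = 0.930). Atp2c2 ranged from -0.108 through -0.0138 to 0.120 and was above 0 on 4 of 8. Its joint value was -0.00721 ± 0.0258 (95% interval -0.0595 to 0.0451; adjusted p = 0.940). The hypoxia animals also entered the day 7 difference on which Atp2c2 was selected, so nothing is read from this test.

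On day 1 after the return to normoxia the 7 genes other than Atp2c2 lay between -0.0143 (Orai1) and 0.0473 (Atp2a2) against hypoxia in the joint fit. None passed, and 0% of all entries did. Atp2a2 was at 0.0473 ± 0.0301 and Trpc6 at 0.0174 ± 0.0711, so the fit leaves room for a difference from hypoxia and does not show that there was none. Trpc1 and Trpv4 were below 0 on 4 of 4 direct arrays of day 1 minus hypoxia, Trpc1 from -0.0448 to -0.00273 and Trpv4 from -0.0679 to -0.0146, against 13.8% of all entries with 1 sign on all 4. On 3 of those 4 arrays hypoxia was in Cy5. The joint values, with the dye effect taken off and the other arrays used, were 0.0171 ± 0.0243 for Trpc1 and -0.00536 ± 0.0199 for Trpv4.

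On day 3, 0 of 8 genes passed against hypoxia, where 0.013% of all entries did, and 2 of 8 had an unadjusted p under 0.05, where 9.22% did. These were Orai1 and Atp2a2. On the 4 direct arrays Orai1 was at -0.0833, -0.0206, -0.0437 and -0.00437, and Atp2a2 at 0.177, 0.0893, 0.0554 and 0.0163. Orai1 was thus below hypoxia and Atp2a2 above it on 4 of 4 arrays, where 15.3% of all entries had 1 sign on all 4. The joint values were -0.0361 ± 0.0164 for Orai1 (limma, adjusted p = 0.491) and 0.0650 ± 0.0293 for Atp2a2 (adjusted p = 0.487).

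Orai1 was below 0 on all 12 arrays that held a day 3 animal, whichever the other animal was, from -0.0833 through a median of -0.0222 to -0.00437, and 0.0652% of all entries had 1 sign on all 12. This was noticed after the values were seen. The differences are small, and the residual SD of Orai1, 0.0450, was at the 13.6th percentile of all entries. Orai1 on day 7 minus day 3 was 0.0366 in the joint fit (limma, adjusted p = 0.476), a step in which 0.00979% of all entries passed.

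Trpc6 was at -0.265, 0.130, -0.211 and -0.0599 on the direct arrays of day 3 minus hypoxia, below 0 on 3 of 4, with a joint value of -0.108 ± 0.0691 (limma, adjusted p = 0.663). On the arrays of day 3 minus day 1 it was at -0.123, -0.0829, -0.218 and -0.129, below 0 on 4 of 4, where 15.1% of all entries had 1 sign on all 4. The joint difference between these days was -0.125 and did not pass (adjusted p = 1.00), and 0% of all entries did. Trpc6 then lay at 0.0779 on day 7 minus day 3 (adjusted p = 0.762).

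Trpc1, Trpv4, Stim1 and Cacna1c had joint values on day 3 minus hypoxia of -0.0345, -0.00865, 0.0296 and 0.0360, and none of them passed. Trpc1 was below 0 on 9 of the 12 arrays with a day 3 animal, and Cacna1c above 0 on 8 of 12.

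**Figure D2:**
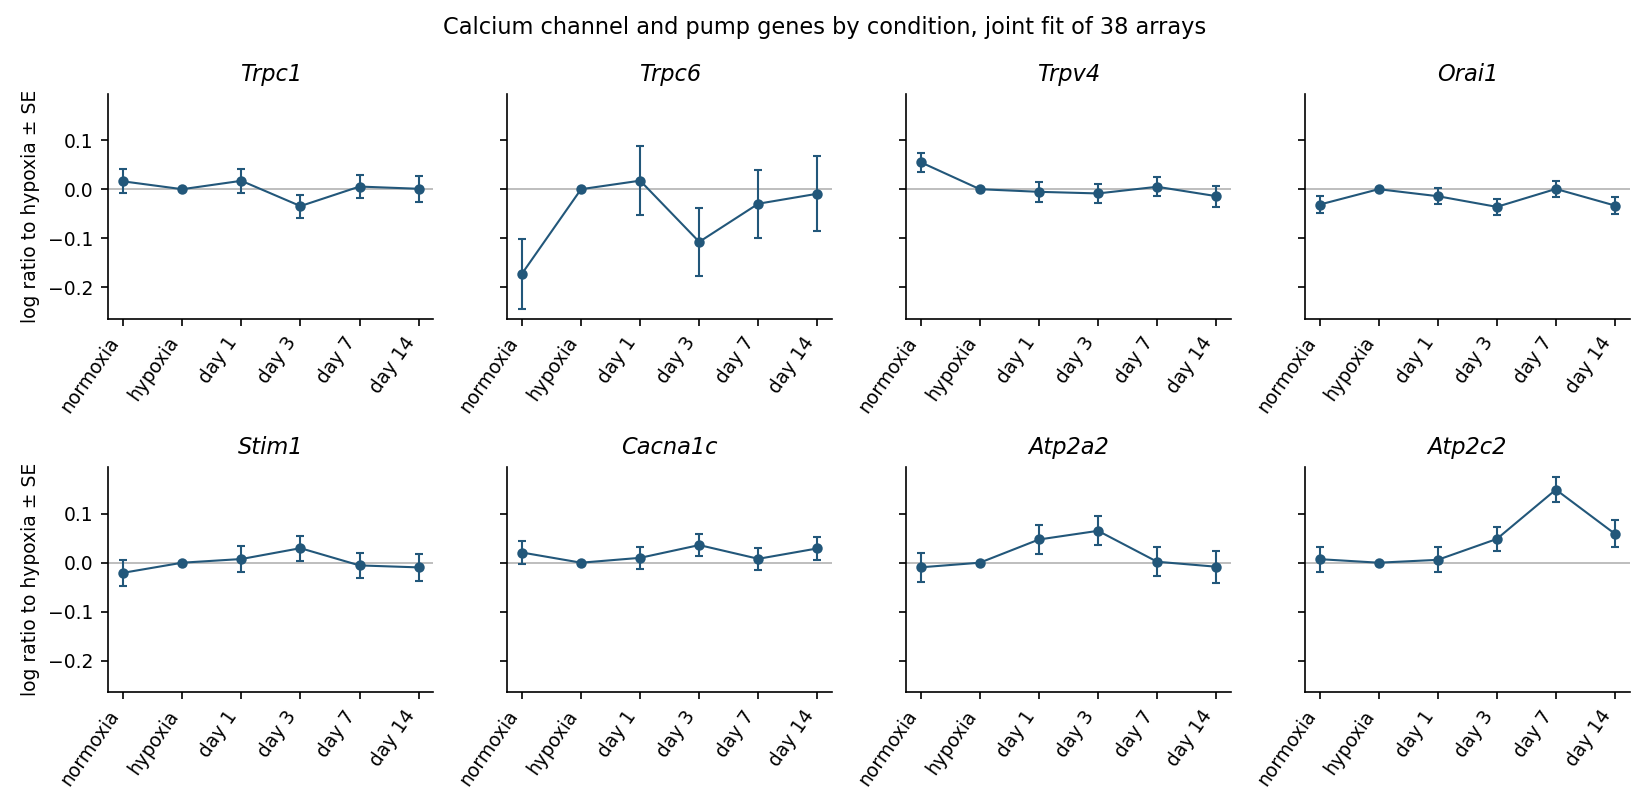
Log ratio to hypoxia (vertical axis, joint fit, bars are SE) of 8 genes in normoxia, hypoxia and on days 1, 3, 7 and 14 after the return to normoxia (horizontal axis); hypoxia is 0 by construction. Atp2c2 peaks on day 7 at 0.149, Trpc6 is lowest in normoxia at -0.172, and Orai1 and Cacna1c keep within 0.0366 and 0.0360 over the 6 conditions.

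On day 7 the pump gene Atp2c2 stood above the hypoxia animals on each direct array, at 0.131 and 0.259 with hypoxia in Cy3 and at 0.233 and 0.184 with hypoxia in Cy5. All 4 lay on the same side of 0, as 12.4% of all entries did, and on both dye orientations. The joint value was 0.149 ± 0.0253 (95% interval 0.0978 to 0.2005), that is 1.41-fold in base 10 or 1.11-fold in base 2. This is the difference that put Atp2c2 on the list, so shares over all entries given beside its day 7 values are background and nothing is read from them. The other 7 genes lay between -0.0296 (Trpc6) and 0.00792 (Cacna1c), and none passed, where 0.0163% of all entries did.

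The 8 further arrays with a day 7 animal set it against day 3 or day 14. Atp2c2 on day 7 minus day 3 was at 0.0601, 0.107, 0.131 and 0.165, above 0 on 4 of 4, where 11% of all entries had 1 sign on all 4. On day 14 minus day 7 it was at -0.0783, -0.0552, 0.0494 and -0.00633, below 0 on 3 of 4. Over all 12 arrays with a day 7 animal, Atp2c2 on day 7 ranged from -0.0494 through a median of 0.119 to 0.259 and was above 0 on 11, a pattern of 1 sign on all or all but 1 that 0.499% of all entries showed and that was noticed after the values were seen. The joint values were 0.101 against day 3, 0.143 against day 1, 0.142 against normoxia and -0.0903 for day 14 minus day 7. These share the day 7 animals and are given as a description.

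Off day 7, the values of Atp2c2 were smaller, an order that its choice on day 7 favours. The values against hypoxia share the hypoxia animals with that choice, so nothing is read from their tests. Day 3 minus hypoxia was 0.0484 ± 0.0251 (limma, adjusted p = 0.565), with direct arrays at -0.109, 0.0491, 0.0719 and 0.236. Day 14 minus hypoxia was 0.0588 ± 0.0276 in the joint fit, while its 3 direct arrays, all with hypoxia in Cy3, were at -0.0391, -0.0673 and 0.0271. Over those direct arrays alone the value was -0.0264, so its sign depends on the arrays that link day 14 to hypoxia through other days and on the dye effect, which was -0.0329 for Atp2c2 (adjusted p = 0.212).

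Markers of other cells moved on day 7 as well. The mean of the 6 red cell markers was -0.222 ± 0.0432 against hypoxia and below 0 on 4 of 4 direct arrays (-0.445 to -0.179), and 3 of the 6 genes passed as lower. The alveolar type 1 mean was -0.0640 ± 0.0186 and the type 2 mean -0.0418 ± 0.0136, each below 0 on 4 of 4 arrays. The airway epithelial mean was 0.0170 ± 0.0179 and above 0 on 3 of 4. Across the 38 arrays Atp2c2 had a Pearson correlation of -0.674 with the red cell mean, -0.518 without the 2 farthest arrays and -0.437 over the 26 arrays without a day 7 animal. With the alveolar mean in the fit the day 7 value of Atp2c2 was 0.122, with the airway mean 0.143 and with the cardiac mean 0.151. The part of the red cell markers in it was not tested.

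**Figure D3:**
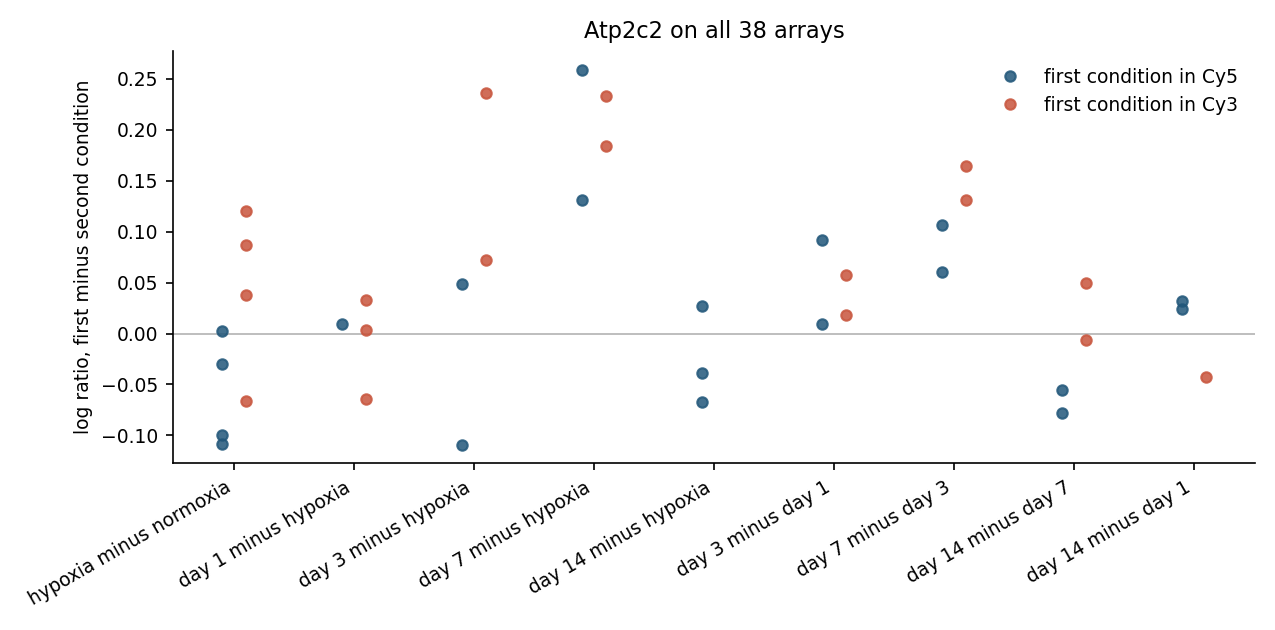
Log ratio of Atp2c2 on all 38 arrays (vertical axis), sorted by the pair of conditions on the array (horizontal axis) and coloured by the dye of the first-named condition. The 4 arrays of day 7 minus hypoxia lie between 0.131 and 0.259, and the 4 of day 7 minus day 3 between 0.0601 and 0.165; the 8 arrays of hypoxia minus normoxia fall on both sides of 0.

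By day 14 the 7 other genes lay between -0.0334 (Orai1) and 0.0291 (Cacna1c) against hypoxia in the joint fit, and none passed, as for 0% of all entries. Orai1 was below 0 on 3 of 3 direct arrays, from -0.0327 to -0.0143, where 28.9% of all entries had 1 sign on all 3. All 3 of these arrays had hypoxia in Cy3.

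Ordered by condition, no gene had neighbouring conditions whose difference passed, and the gap of Atp2c2 between day 7 and the next condition is left without a test. Trpc6 was highest on day 1 (0.0174 to hypoxia), followed by hypoxia, day 14, day 7, day 3 and normoxia. Trpv4 was highest in normoxia (0.0550), followed by day 7, hypoxia, day 1, day 3 and day 14, and its step from normoxia to day 7 had the smallest adjusted p of these gaps (limma, 0.644). Orai1 ran from day 7 and hypoxia down to day 14 and day 3. Atp2a2 was highest on days 3 and 1 and lowest in normoxia, and Atp2c2 ran from day 7 through day 14, day 3, normoxia and day 1 to hypoxia.

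The genes differed in how steady they were. Trpc6 had a residual SD of 0.209, at the 98.4th percentile of all entries, and Orai1 one of 0.0450. The other 6 lay between 0.0550 (Trpv4) and 0.0867 (Atp2a2), with a median of 0.0821 over all entries. The range over the 6 conditions was 0.190 for Trpc6 and 0.149 for Atp2c2, at the 97.0th and 92.1st percentiles. For Orai1 and Cacna1c it was at the 19.5th and 18.9th. No gene had a dye effect that passed, where 290 of all 30653 entries did. Over all 15 contrasts, 3.79% of the entries passed in at least 1.

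The 4 features of Atp2a2, designed to 3 transcript records, did not all move together. For hypoxia minus normoxia feature 3278 gave -0.0565, feature 18825 gave 0.0209, feature 19180 gave -0.00493 and feature 19552 gave 0.0784, and none passed. On day 3 minus hypoxia all 4 were above 0, at 0.0136, 0.0653, 0.0973 and 0.0840 in the same order, and feature 18825 came nearest to passing (limma on single features, adjusted p = 0.352). Features 19180 and 19552, designed to the same record, correlated at 0.655 over the 38 arrays, and the other 5 pairs between -0.0923 and 0.321.

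The features of Atp2a2 also differed in how they went with cardiac muscle genes, which the walls of the lung's larger veins express in mice. The mean of 17 cardiac muscle markers, calcium genes left out, correlated at 0.827 with feature 19180 and at 0.427 with feature 19552, but at -0.106 with feature 3278 and 0.0108 with feature 18825. The mean over the 4 features had a correlation of 0.614. On the direct arrays of hypoxia minus normoxia, the arrays with Atp2a2 at -0.199, 0.127 and 0.157 had a cardiac mean of -0.304, 0.143 and 0.131. Array N_H 1 went against this, with a cardiac mean of -0.273 and Atp2a2 at 0.00922. The remaining 4 arrays had cardiac means between -0.0507 and -0.0235 and Atp2a2 between -0.0420 and 0.0362. With the cardiac mean in the fit, Atp2a2 on day 3 minus hypoxia was 0.0516 (adjusted p = 0.491).

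**Figure D4:**
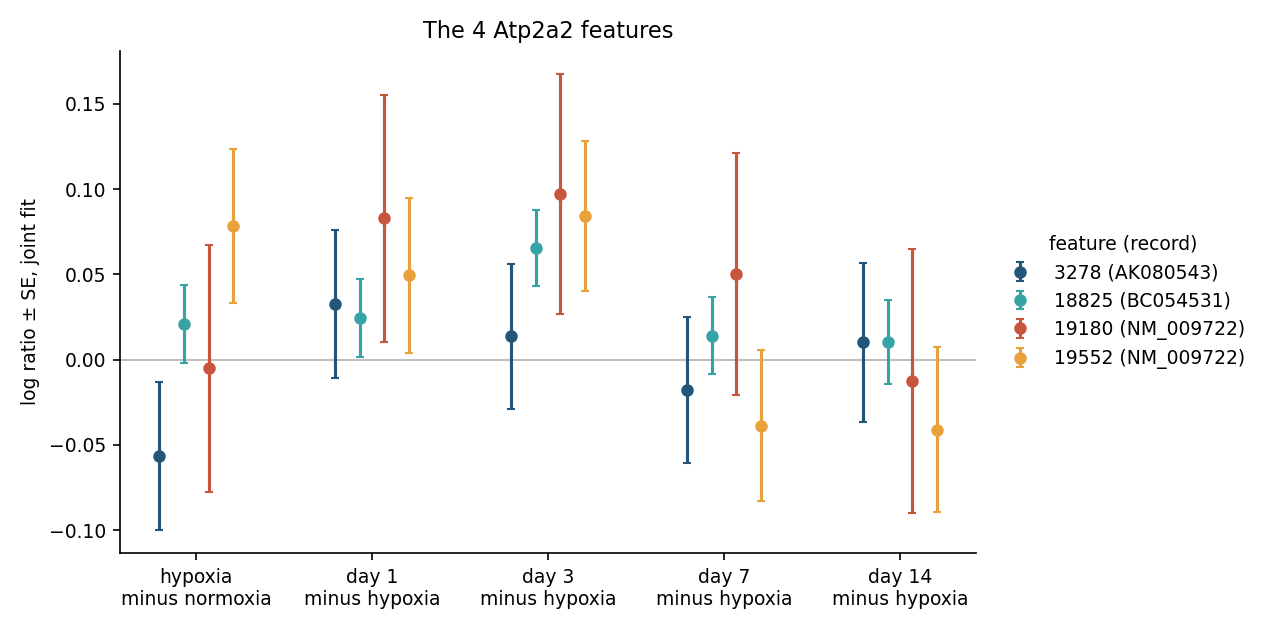
Log ratio of each of the 4 Atp2a2 features (vertical axis, joint fit, bars are SE) in hypoxia minus normoxia and on days 1, 3, 7 and 14 minus hypoxia (horizontal axis). The features scatter from -0.0565 to 0.0784 in hypoxia minus normoxia and all lie above 0 on day 3.

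The features of the other genes were no closer to each other: the pairs of Trpc1 features correlated between -0.0688 and 0.282, those of Stim1 at 0.103 and those of Cacna1c at 0.0807. Across genes, the 28 pairs had correlations from -0.356 (Orai1 and Cacna1c) to 0.237 (Trpv4 and Orai1), and 11 were above 0. All of these are over the same 38 arrays after the dye effect was taken off, so they share array noise and the conditions.

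The named genes whose log ratios over the 38 arrays were most like each gene's were found in the same way. Atp2a2 was closest to Myom2, Tnnt2 and Tnni3, with correlations of 0.716, 0.661 and 0.654, which encode proteins of the muscle sarcomere. Atp2c2 was closest to Ms4a20, Olfr551 and Atp2b3 (0.687, 0.678 and 0.675), the last a calcium pump of the plasma membrane. Without the 2 arrays farthest out for each neighbour these were 0.541, 0.653 and 0.428. Trpc6 was closest to Mmab, Tusc3 and Trib2 (0.676, 0.641 and 0.638), and Trpc1 to Gnb1l, Ttc41 and Fgf20 (0.667, 0.646 and 0.627). Trpv4 was closest to Lrrc38, Olfr401 and Olfr821 (0.748, 0.690 and 0.690), and Orai1 to Olfr1344, 1700029M20Rik and Oas1f (0.740, 0.718 and 0.713). Stim1 was closest to Ankrd61, Fbxl20 and Pcm1 (0.593, 0.559 and 0.550), and Cacna1c to Mrpl15, Gbp6 and Xist (0.595, 0.591 and 0.585).

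Of the other genes of calcium handling, 147 of 164 listed had a feature on the array. In hypoxia minus normoxia 4 of the 147 passed, 2.72% against 3.6% of all entries, 2 higher and 2 lower. Their median log ratio was 0.000598, against -0.00397 over all entries. An unadjusted p under 0.05 was found for 31 of them, 21.1% against 16.8%. In the 14 other contrasts 0 of the 147 passed in limma, where between 0% and 0.783% of all entries did. An unadjusted p under 0.05 was found for 17 on day 3 minus hypoxia (9.22% of all entries had one) and 8 on day 7 minus hypoxia (6.48%).

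By role, 1 of 22 other Trp channels passed, Trpc4, which forms channels with Trpc1. It was below 0 on 8 of 8 direct arrays, as 4.02% of all entries had 1 sign on all 8, from -0.144 through -0.0647 to -0.00807, and fell by 0.0661 ± 0.0186 on the log scale (limma, adjusted p = 0.0372). With the alveolar mean in the fit its value was 0.00305. Of 19 other channels of the plasma membrane that pass calcium, P2rx2, an ATP-gated channel, fell by 0.0816 ± 0.0169 (adjusted p = 0.00466), with direct arrays at -0.177 through -0.0720 to -0.0342.

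Of 10 other genes of store-operated entry, Septin4, a filament protein whose family organises the sites where Stim1 meets Orai1, rose by 0.111 ± 0.0246 (limma, adjusted p = 0.00808). It was above 0 on 8 of 8 direct arrays, from 0.0271 through 0.112 to 0.203. Of 10 other pump genes, Atp2a3 (SERCA3), a pump of endothelium and blood cells, rose by 0.103 ± 0.0300 (adjusted p = 0.0462), with direct arrays from -0.0735 through 0.127 to 0.208 and 6 of 8 above 0. None of the 4 passed with the alveolar mean in the fit, where P2rx2 was at -0.0719, Septin4 at 0.0520 and Atp2a3 at 0.0733. Of all 30653 entries, 38 passed in that fit and 1102 without the alveolar mean, so most calls were lost there. Atp2a3 kept its call in 22 of 38 fits that left out 1 array, Trpc4 in 31 of 38, and P2rx2 and Septin4 in 38 of 38 each.

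None passed among 21 store release channels and their partners (4 above 0 and 17 below, median -0.0158), 21 other subunits of voltage-gated channels, 9 sodium-calcium exchangers, 9 genes of mitochondrial calcium uptake (8 above 0 and 1 below, median 0.0285) and 26 genes of calcium-dependent signalling. Over all entries 45.2% were above 0. The release list shares Ryr2 with the cardiac muscle markers and Casq2 with the smooth muscle markers. The means of these markers were -0.0496 ± 0.0344 and -0.0669 ± 0.0156 in hypoxia minus normoxia. Their part in the release list was not tested. On day 7 minus hypoxia the calcium gene with the smallest p outside the 8 was Atp2b3, at 0.0972 ± 0.0230 (limma, adjusted p = 0.279), and on day 3 minus hypoxia Orai3, a pore subunit related to Orai1, at 0.115 (adjusted p = 0.239).

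**Figure D5:**
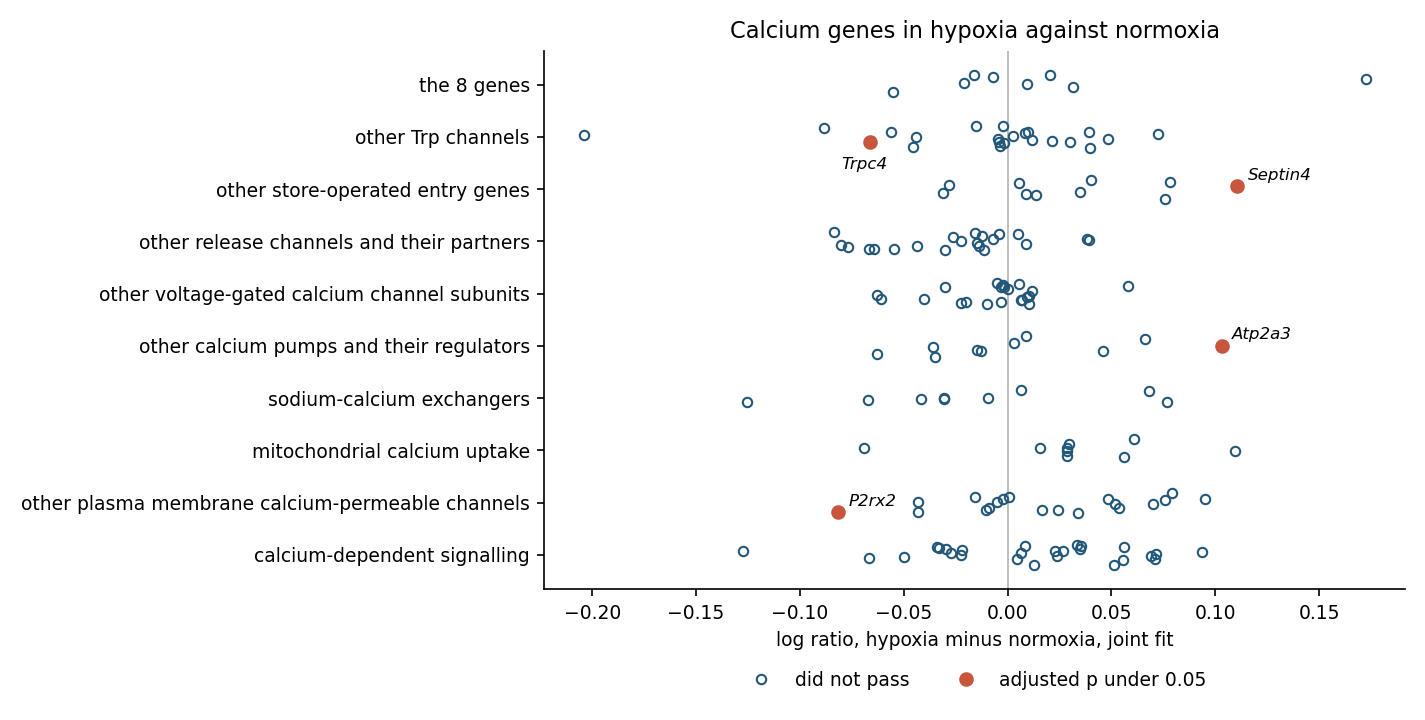
Log ratio of hypoxia minus normoxia in the joint fit (horizontal axis) for the 8 genes and 147 other calcium genes, 1 point per gene, in rows by role (vertical axis). Filled points passed an adjusted p of 0.05: Trpc4 and P2rx2 lie at -0.0661 and -0.0816, Atp2a3 and Septin4 at 0.103 and 0.111, and no filled point is in the top row.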

How the data were processed

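The deposited log ratios were taken as log10 of Cy5 over Cy3, 1 value per feature and array. The base and the direction are not stated; small values (largest 1.12) led to base 10, and log2 remains possible. Per the submitters' processing notes limma was used, with no version given, and how the signals were background-corrected and normalized is not given in the sources used here. Gene symbols came from the platform annotation (33653 features with 1 symbol, 56 with several, 11511 with none). The features of a gene were averaged, 2 features that lacked a value on some array were dropped, and 30653 entries were fitted in R 4.3.3 with limma 3.58.1 (lmFit, eBayes), with a dye intercept and 5 condition terms over all 38 arrays and 32 residual degrees of freedom. Each of the 15 contrasts was adjusted over all entries (Benjamini-Hochberg, threshold 0.05, two-sided). The number of arrays limits the precision. Groups and replicate numbers came from the labels. Each channel was taken as a separate animal and as 1 replicate. Whether RNA of an animal was used on several arrays could not be checked, and the p-values assume that it was not. Named genes were the listed genes, every other listed calcium gene past the threshold or else up to 3 with the smallest p, and the 3 nearest genes by Pearson correlation. The genes, lists and tests were chosen with earlier results of these data known. The fit was tested on simulated data. The replicate numbers do not pair animals in the labels. Same-numbered arrays of other groups had a mean correlation of -0.0183, over 0.1 in 28 of 248 pairs. Other-numbered arrays of other groups had a mean of -0.0231, over 0.1 in 37 of 426 pairs. These means were no test of pairing. Fits without the dye term, with scaled, centred or weighted arrays, single features, a variance filter, robust moderation, marker means as covariates, a replicate block, direct arrays alone and each array left out were tried.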

Additional observations from a re-analysis of the deposited data

Results flagged for a closer look

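In 4 of 56 sets of 4 to 8 direct arrays tested, 1 array stood apart from the others of its pair of conditions; chance alone flags about 1 in 20. The values here, other than the cardiac muscle means, have the dye effect taken off. On day 3 minus day 1, array N1_N3 2 had Atp2a2 at -0.140 where the other 3 arrays lay between 0.0791 and 0.105, and its cardiac muscle mean was 0.0275 against 0.00373 to 0.0333 on the others. The same array had Trpv4 at 0.0104, against -0.0398 to -0.0335 on the other 3. On day 7 minus day 3, array N7_N3 1 had Cacna1c at 0.147, against -0.123 to -0.0883. On day 14 minus day 7, array N14_N7 1 had Trpc6 at -0.369, against -0.00588 to 0.00685.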

How the results depend on the processing

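Atp2c2 was chosen on day 7 minus hypoxia, so the counts past the threshold there are a record of the fits and no test of it. The count among the 8 genes was 1, and 0 with array weights, with the alveolar marker mean as a covariate and with direct arrays alone, where Atp2c2 was at 0.134, 0.122 and 0.202. Leaving out 1 array gave 0 to 1, with 0 without H_N7 1, H_N7 2, N7_H 1 or N7_H 2 (the first-named condition in Cy3; Atp2c2 at 0.147, 0.130, 0.142 and 0.149). On hypoxia minus normoxia the count was 0, and 0 to 1 leaving out 1 array. The other calcium genes that passed there numbered 4, and 1 with the 50% of entries of lowest SD left out, 0 with the alveolar mean, 1 with direct arrays alone and 2 to 5 leaving out 1 array (2 without H_N 2 or N_H 3); Trpc4 turned to 0.00305 with the alveolar mean. These alternatives for the other calcium genes were chosen after seeing the data. With the replicate block, Atp2c2 was at 0.149 on day 7 minus hypoxia, no count among the 8 genes changed, and Atp2a3 no longer passed (adjusted p = 0.0558). Single values that moved by more than a residual SD were Trpc1 on day 14 minus day 7 (-0.0742 with the most variable feature), Stim1 on hypoxia minus normoxia (-0.0569 with the alveolar mean) and Atp2c2 on day 14 minus hypoxia (-0.0264 with direct arrays). Entries passing on hypoxia minus normoxia numbered 1102, 38 with the alveolar mean, 103 with direct arrays alone and 528 to 1316 leaving out 1 array. On day 3 minus hypoxia they numbered 4, with 0 to 66 over the other fits, and on day 7 minus hypoxia 5, with 0 to 7. The causes were not tested, beyond the smaller number of arrays in the fits on direct arrays.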
